A study of Mus musculus with 12 samples.

Results

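The 8 genes described here encode the DNA topoisomerases of mouse cells, with their mitochondrial form, and the pair of tyrosyl-DNA phosphodiesterases that repair DNA on which a topoisomerase has become stuck. They are Top2a, Top2b, Top1, Top1mt, Top3a, Top3b, Tdp1 and Tdp2 (TOP2A, TOP2B, TOP1, TOP1MT, TOP3A, TOP3B, TDP1 and TDP2 in the table, which writes symbols in capitals). The genes were chosen by name as the doxorubicin-facing enzymes and their repair partners, and all 8 were found among the 16425 genes of the table. Polyadenylated RNA was sequenced from embryonic fibroblasts (MEFs) of wild-type mice, the connective tissue cells that grow out of a minced embryo. The MEFs called sgPVT1 here, and sg10 in the labels, where they are also termed p53RE mutant, had been infected with a guide RNA (sgRNA) directed at the p53 response element of Pvt1, a site bound by the transcription factor p53. The control MEFs, called sgTom, carried a non-targeting guide. Both groups had been grown in 0.5 µM doxorubicin for 24 h and had 3 libraries each, described by the submitters as biological replicates. Untreated MEFs of the same series were not analysed here, so no value below measures the effect of doxorubicin. Mouse strain, embryo age and whether the cells are clones or pools are not given in the sources used here.

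Topoisomerases cut DNA, let strands pass or turn, and seal the cut again, staying bound to the broken end through a tyrosine while it is open. Type II enzymes (Top2a, Top2b) cut both strands and separate tangled chromosomes, type IB enzymes (Top1, Top1mt) relax supercoils ahead of polymerases, and type IA enzymes (Top3a, Top3b) undo linked single strands. Doxorubicin slides between base pairs and holds type II enzymes on cut DNA, which leaves protein-linked breaks and activates p53. In fibroblasts Top2a is made mainly by dividing cells, whereas Top2b is also made by cells that have stopped dividing.

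Levels are in CPM, read counts that the authors had divided by a scaled library size. Libraries held between 50091418 and 66132317 reads in genes. The check of the guide was Pvt1 itself, at 8.04, 5.93 and 5.40 CPM in sgPVT1 MEFs, against 16.4, 11.7 and 12.1 CPM in sgTom MEFs. The groups did not overlap. All 10 fibroblast markers passed the filter on low values, with a summed level of 37018 to 38125 CPM in sgPVT1 MEFs and 38244 to 38811 CPM in sgTom MEFs. Macrophage markers, 8 of the 9 listed, summed to 80.6 to 286 CPM in sgPVT1 MEFs and 86.3 to 179 CPM in sgTom MEFs, and both libraries of replicate 1 were highest within their group. Epithelial markers, 6 of the 7 listed, summed to 54.8 to 99.99 CPM in sgPVT1 MEFs and 76.4 to 92.1 CPM in sgTom MEFs, most of it from Krt19 (51.4 to 96.9 CPM), while Epcam and Cdh1, which define epithelial cells, stood at 0.605 CPM or less. Endothelial markers, 4 of the 6 listed, summed to 51.2 to 73.3 CPM in sgPVT1 MEFs and 60.2 to 69.8 CPM in sgTom MEFs, most of it from Kdr (47.5 to 69.3 CPM), while Pecam1, which defines endothelial cells, reached at most 0.605 CPM. Libraries with equal replicate numbers resembled each other, so a fit with the number as a block (the blocked fit) is given beside the fit without it.

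Top2a RNA was scarce in these cells. It stood at 3.04, 3.98 and 4.001 CPM in sgPVT1 MEFs, against 2.63, 3.68 and 3.73 CPM in sgTom MEFs. The groups overlapped, and within each group replicate 1 was the lowest library. These values rest on 152 to 291 reads per library, so counting error alone spans 2.63 to 3.49 CPM in sgPVT1 replicate 1 and 2.23 to 3.08 CPM in sgTom replicate 1 (95% exact Poisson intervals, which cover counting error only). The gene (ENSMUSG00000020914.17) lies on the minus strand of chromosome 11 from 98992943 to 99024189 (mm10, GENCODE M21). Means were 3.67 ± 0.549 CPM with the guide against Pvt1 and 3.35 ± 0.620 CPM with the control guide (SD, n = 3 each), 1.10 times the control mean.

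Top2b RNA was abundant and even. It stood at 105, 114 and 108 CPM in sgPVT1 MEFs, against 107, 107 and 108 CPM in sgTom MEFs. Means were 109 ± 4.34 CPM and 107 ± 0.333 CPM (SD, n = 3 each), which differ by less than the sgPVT1 SD. Its 6188 to 7845 reads per library leave little counting error. Top2b (ENSMUSG00000017485.11) lies on the plus strand of chromosome 14 from 16365179 to 16435462, and 12.3% of its exonic bases overlap exons of Rarb on the other strand. The kit marked the strand, but the strand setting used for counting is not given, and Rarb itself had 2.69 to 8.49 CPM.

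The promoters of the type II genes are shown because these enzymes are the drug's targets and their RNA levels lie far apart. The sequences are the 250 bases before the RefSeq start (build GRCm38.p6), 5′ to 3′ on the gene's strand, at chr11:99024190-99024439 (minus strand) for Top2a and chr14:16364956-16365205 (plus strand) for Top2b. Capitals mark CCAAT on either strand (CCAAT or ATTGG), the letters of the element bound by NF-Y, which is common before genes of dividing cells.
Top2a: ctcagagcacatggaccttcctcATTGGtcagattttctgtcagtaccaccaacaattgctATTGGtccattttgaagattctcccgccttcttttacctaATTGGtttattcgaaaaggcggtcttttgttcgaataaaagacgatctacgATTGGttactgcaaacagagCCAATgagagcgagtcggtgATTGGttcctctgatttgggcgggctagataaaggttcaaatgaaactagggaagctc
Top2b: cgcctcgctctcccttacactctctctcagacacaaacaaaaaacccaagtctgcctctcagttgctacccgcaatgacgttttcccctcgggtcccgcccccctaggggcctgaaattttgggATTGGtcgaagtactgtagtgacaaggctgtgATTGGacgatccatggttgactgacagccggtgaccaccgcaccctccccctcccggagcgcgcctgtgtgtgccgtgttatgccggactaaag
Top2a holds 6 matches, starting 227, 189, 149, 98, 78 and 58 bases before its start, of which 1 reads CCAAT on the gene's strand and the others ATTGG. Top2b holds 2 matches, both ATTGG, 126 and 94 bases before its start. Of 32851 windows of this length in the RefSeq table, 33.8% hold at least 1 match, 10.1% hold at least 2 and 0.0578% (19 windows) hold at least 6. The letters TTTGAA or TTCAAA, as in the cell cycle element called CHR, occur 2 times before Top2a, 179 and 23 bases before its start, and 0 times before Top2b, and 15.99% of windows hold at least 1. No CCAAT match shares a base with a TTTGAA match. CACGTG, the E-box bound by Myc, which reads the same on both strands, occurs 1 time before Top1 and 0 times before Top2a, Top2b, Top3b and Tdp1, and 6.02% of windows hold it. Top1 holds 0 CCAAT matches, Tdp1 holds 0 and Top3b holds 1. A match is a description of the letters and not a measured binding site. Top1mt, Top3a and Tdp2 had no entry in that table.

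The Top2a to Top2b ratio within a library does not depend on its depth. On the log2 scale of CPM it was −5.11, −4.84 and −4.75 in sgPVT1 MEFs, against −5.35, −4.87 and −4.85 in sgTom MEFs. The groups overlapped, and the ratio was higher with the guide against Pvt1 in 3 of 3 pairs of equal replicate number, by 0.24, 0.030 and 0.10. The mean difference of 0.12 (means −4.90 ± 0.188 and −5.02 ± 0.281, SD, n = 3 each) gave p = 0.5 in a two-sided exact permutation test and p = 0.25 in an exact sign flip within pairs. The smallest values these designs allow are 0.1 and 0.25. Leaving out sgTom replicate 1 turned the difference to −0.040.

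Per length, Top2b was 13.6 to 20.6 times as high as Top2a over the 6 libraries (median 14.7, CPM per kb of the transcript with the longest coding sequence). Top2a made up 4.64% to 6.84% of the type II level per kb, and 0.569% to 0.872% of the summed level of the 8 genes. On the same scale the order of mean levels was Top3b (29.9 CPM per kb), Top1 (19.3), Top2b (10.5), Tdp2 (8.82), Top1mt (6.98), Top3a (6.56), Tdp1 (5.77) and Top2a (0.672). Top1mt and Top3a overlapped in their ranges over the 6 libraries, as did Top3a and Tdp1, and the other neighbours in the order did not. The order in the middle depended on the length used. Per kb of all annotated exons Top3b still came first (10.9 CPM per kb) and Top2a last (0.389), but Top2b (7.40) came before Top1 (7.15), Tdp2 (5.25) came after Top1mt (6.50) and Top3a (5.34), and Tdp1 was at 1.47. On this scale the ranges of Top2b (7.18 to 7.77) and Top1 (6.82 to 7.60) overlapped, as did those of Top3a (4.58 to 6.15) and Tdp2 (4.81 to 5.63). The Top2b level was then 17.9 times that of Top2a (median).

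**Figure D1:**
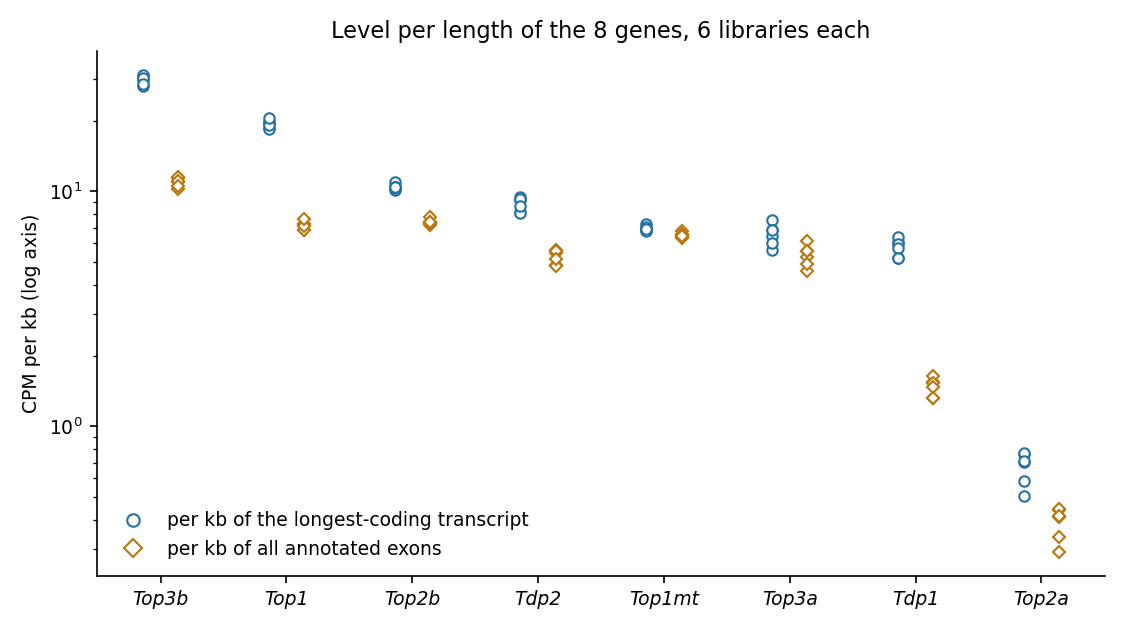
Level per length of the 8 genes in CPM per kb on a log axis, each point 1 library, with circles per kb of the transcript with the longest coding sequence and diamonds per kb of all annotated exons. Top3b is the highest under both lengths, at 27.99 CPM per kb or more as circles, and Top2a the lowest, at 0.766 CPM per kb or less.

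The type IB genes differed little between guides. Top1, the nuclear enzyme that travels with replication and transcription, stood at 71.6, 75.6 and 76.0 CPM in sgPVT1 MEFs, against 71.2, 74.0 and 79.2 CPM in sgTom MEFs. Top1mt, which is encoded in the nucleus and relaxes mitochondrial DNA, stood at 13.9, 13.0 and 13.2 CPM in sgPVT1 MEFs, against 13.5, 12.9 and 13.2 CPM in sgTom MEFs. Neither gene parted the groups. Top1 was higher with the guide against Pvt1 in 2 pairs and lower in 1, and Top1mt was higher in 3 of 3 pairs by factors of 1.03, 1.01 and 1.001. Top1 (ENSMUSG00000070544.6) lies on chromosome 2 from 160645888 to 160722764, plus strand. Top1mt (ENSMUSG00000000934.9) lies on chromosome 15 from 75657035 to 75678800, minus strand.

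The type IA genes overlapped between guides as well. Top3a, which works with the Blm helicase to dissolve joined DNA strands, stood at 28.3, 21.1 and 25.7 CPM in sgPVT1 MEFs, against 24.2, 22.5 and 25.6 CPM in sgTom MEFs. The groups overlapped fully, and replicate 2 was the lowest library of each. Top3b, which also acts on RNA together with Tdrd3, stood at 95.6, 96.6 and 91.7 CPM in sgPVT1 MEFs, against 93.3, 86.0 and 88.3 CPM in sgTom MEFs. It was higher in 3 of 3 pairs, by factors of 1.02, 1.12 and 1.04, while 1 sgTom library lay above the lowest sgPVT1 library. Top3a (ENSMUSG00000002814.15) lies on chromosome 11 from 60740058 to 60777365, minus strand, and Top3b (ENSMUSG00000022779.16) on chromosome 16 from 16870736 to 16892990, plus strand.

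Tdp1 frees the broken DNA end from a stuck Top1, and Tdp2 frees it from a stuck type II enzyme. Tdp1 stood at 12.4, 13.1 and 10.5 CPM in sgPVT1 MEFs, against 12.2, 11.7 and 10.6 CPM in sgTom MEFs. Replicate 3 was the lowest library of both groups. Tdp2 stood at 16.03, 18.04 and 15.8 CPM in sgPVT1 MEFs, against 18.5, 18.2 and 16.98 CPM in sgTom MEFs. It was the only member lower in 3 of 3 pairs, by factors of 0.867, 0.989 and 0.931, and its groups overlapped through sgPVT1 replicate 2. Tdp1 (ENSMUSG00000021177.16) lies on chromosome 12 from 99884517 to 99955219 and Tdp2 (ENSMUSG00000035958.3) on chromosome 13 from 24831679 to 24842153, both on the plus strand.

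**Figure D2:**
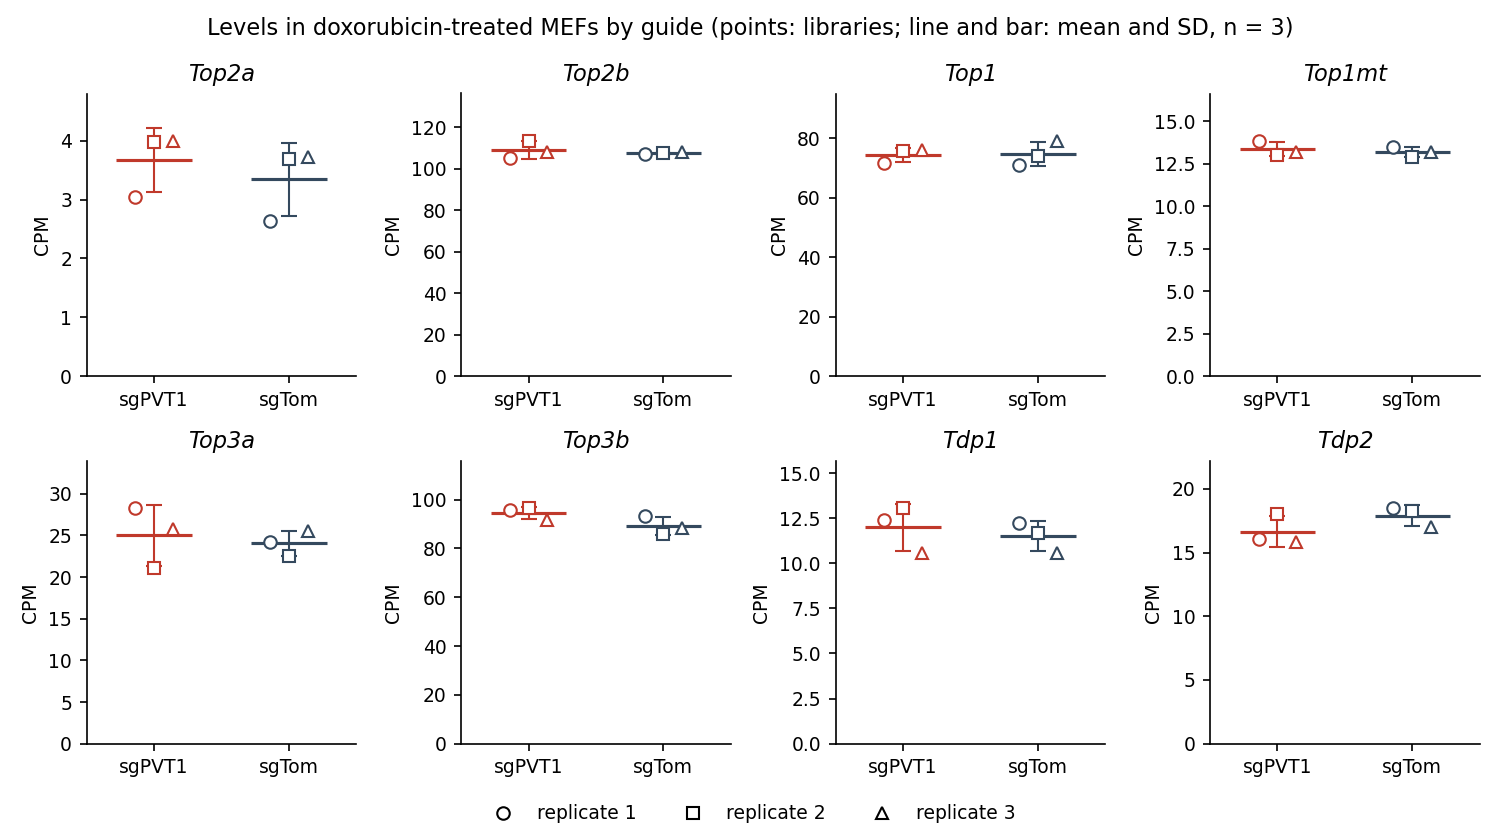
Level of each gene in CPM in sgPVT1 and sgTom MEFs under doxorubicin, with circles, squares and triangles for replicates 1, 2 and 3, a horizontal line at the mean and a bar of 1 SD (n = 3 each). The guides overlap for all 8 genes, and for Top2a the circles are lowest in both groups, at 3.04 and 2.63 CPM.

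The guides were compared to ask which RNAs depend, under doxorubicin, on the p53 site of Pvt1. No member passed the test. Log2 fold changes of CPM + 0.5, sgPVT1 over sgTom, ran from −0.10 for Tdp2 to 0.12 for Top2a, with a median of 0.033 over the 8 genes, against −0.00040 over all 14440 genes tested. Of the members 6 lay higher and 2 lower, where 7176 of all genes tested lay higher and 7264 lower. Called were 0 of 8 members by limma without a block (threshold 0.05 on the Benjamini-Hochberg adjusted p over all genes, adjusted p = 0.99997 for each), beside a background of 0%. The background was 0.0346% (5 genes, 160 without replicate 2, or 0 by limma without trend) in the blocked fit, where again 0 members were called. At an unadjusted p under 0.05 there were 0 members without the block, where 0.346% of all genes passed, 1 member (Top3b) with it, where 6.68% passed, and 0 by edgeR with or without the block and by DESeq2 without it. By limma without trend with the block there was 1 member, where 843 of 14440 genes passed. Top2a had the lowest adjusted p of the members in that fit (0.835), ahead of Tdp2 (0.843) and Top3b (0.849). Groups did not overlap for 0 of 8 members, where 3.61% of all genes did not overlap. Higher in 3 of 3 pairs were 3 of 8 members (Top2a, Top1mt and Top3b), where 14.4% of all genes were, and lower in 3 of 3 pairs was 1 of 8 (Tdp2), where 14.4% were.

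A p that misses the threshold does not show equal levels, so the intervals of the fold on the CPM + 0.5 scale are given. For Top2b the 95% interval was 0.926 to 1.11 without the block and 0.960 to 1.07 with it. For Top1 it was 0.898 to 1.10 without the block and 0.943 to 1.05 with it. Both intervals leave out changes as large as those of Pvt1 (log2 fold change −0.999, SE 0.188) and Myc (0.67, SE 0.127). The fit without the block called neither Pvt1 nor Myc (limma adjusted p = 0.99997 for each). The blocked fit called both (limma adjusted p = 1.40e-04 for Pvt1 and 5.49e-04 for Myc). Top2a had the widest interval, 0.816 to 1.45 without the block and 0.943 to 1.25 with it (log2 fold change 0.12, SE 0.172 without the block and 0.0942 with it). Top3b was the only member whose blocked interval, 1.003 to 1.12, lay above 1, with an unadjusted p of 0.0412 there, and limma with Benjamini-Hochberg adjustment over all genes gave 0.738 (log2 fold change 0.085, higher in 3 of 3 pairs). This depended on the fit. Without trend the blocked SE was 0.0485 for Top3b and 0.0441 for Top2a. In the blocked fit without replicate 2 the Top3b log2 fold change was 0.044 (SE 0.0393). Tdp2 had a blocked interval of 0.851 to 1.02 (log2 fold change −0.10, limma adjusted p = 0.758), Tdp1 0.941 to 1.15 (0.056), Top3a 0.940 to 1.13 (0.046) and Top1mt 0.925 to 1.11 (0.020). In the authors' deposited table the log2 fold changes of the members ran from −0.11 (Tdp2) to 0.13 (Top2a), with a false discovery rate of 1 for each. It was 0.224 there for both Pvt1 and Myc.

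**Figure D3:**
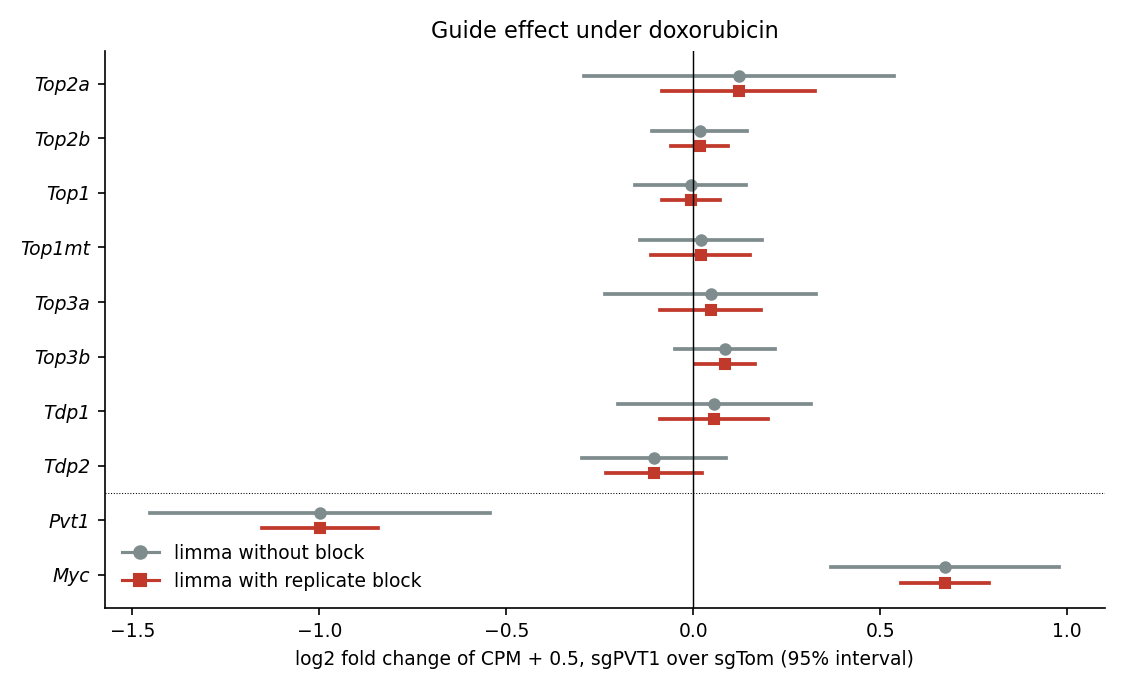
Log2 fold change of CPM + 0.5, sgPVT1 over sgTom, with its 95% interval, without the replicate block (circles) and with it (squares). The 8 genes lie between −0.10 and 0.12, with Pvt1 at −0.999 and Myc at 0.67 below the dotted line for scale.

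Top2a and Top3a differed between replicate numbers. Top2a averaged 2.83, 3.83 and 3.86 CPM over the guides in replicates 1, 2 and 3, a spread of 0.39 between the highest and the lowest number on the log2 scale of CPM + 0.5. It passed the test over replicate numbers (limma F test with the guide as a term, adjusted p = 0.0207), and lost the call without replicate 1 (spread 0.011, limma adjusted p = 0.966). Top3a averaged 26.2, 21.8 and 25.6 CPM and passed too (spread 0.26, limma adjusted p = 0.0263), but not without replicate 2 (0.028, limma adjusted p = 0.725) or by limma without trend (adjusted p = 0.146). Called were 2 of 8 members, beside a background of 48.6% (7022 genes, or 3068 without replicate 1). By edgeR they were 2 of 8 (background 47.2%) and by limma without trend 1 of 8 (background 30%). Top1, at 71.4, 74.8 and 77.6 CPM by number (limma adjusted p = 0.0945), and Tdp1, at 12.3, 12.4 and 10.6 CPM (limma adjusted p = 0.0640), did not pass, and each passed without replicate 2 (limma adjusted p = 0.0118 and 0.0232). Top2b (106, 110 and 108 CPM), Top3b (94.4, 91.3 and 90.0 CPM), Top1mt (13.7, 13.0 and 13.2 CPM) and Tdp2 (17.3, 18.1 and 16.4 CPM) did not pass in any of the alternatives run. The SD of log2(CPM + 0.5) over the 6 libraries lay under the median of all genes tested (0.133) for 6 of 8 members, with Top1mt (0.0358) and Top2b (0.0373) the steadiest and Top3a (0.148) and Top2a (0.210) above it.

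Markers of macrophages moved with the replicate number as well, with a summed level of 233, 83.5 and 101 CPM in replicates 1, 2 and 3. Epithelial markers summed to 95.3, 65.6 and 94.2 CPM and endothelial markers to 71.5, 55.7 and 69.3 CPM by number. Averaged over the guides, each of these marker sums was lowest in replicate 2, where Top3a was lowest. Each was highest in replicate 1, where Top2a was lowest, but for epithelial markers replicate 3 lay almost as high. The part of these markers in the Top2a and Top3a spreads was not tested. In bulk RNA, fewer dividing cells and less Top2a RNA per cell cannot be told apart. Replicate 1 was the lowest library within both guides for 3 of 8 members (Top1, Top2a and Top2b), where 29.1% of all genes tested were, and the highest within both for 1 (Top1mt), where 29.3% were. Genes of cell division, a list of 15, spread more widely. Of these, 9 (60%) differed between replicate numbers, beside the background of 48.6%, with a median spread of 0.68 against 0.23 for all genes. The background was not matched for level. Cenpf, Bub1b, Birc5 and Kif11 averaged 6.17 CPM or less by number, where counting error widens a spread. Cenpf, a kinetochore protein gene, averaged 1.95, 6.17 and 4.79 CPM by number (limma adjusted p = 2.66e-06), and Bub1b, of the spindle checkpoint, 2.43, 5.47 and 4.47 CPM (limma adjusted p = 1.98e-04). Cenpf and Bub1b had the smallest replicate p of the list, and not all of its genes followed them. Birc5 averaged 1.68, 1.83 and 1.71 CPM by number (limma adjusted p = 0.866), and Kif11 1.37, 1.17 and 1.69 CPM (limma adjusted p = 0.0907). Cdk1 and Aurkb had spreads of 0.097 and 0.096. Replicate 1 was lowest in both guides for 6 of the 15. Between guides, 7 of the 15 lay higher and 8 lower, with 0 called in either fit. Birc5, which guards chromosome segregation, stood at 1.60 CPM in sgPVT1 MEFs and 1.88 CPM in sgTom MEFs (log2 fold change −0.18), and the mitotic motor gene Kif11 at 1.30 and 1.52 CPM in sgPVT1 and sgTom MEFs (−0.18).

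**Figure D4:**
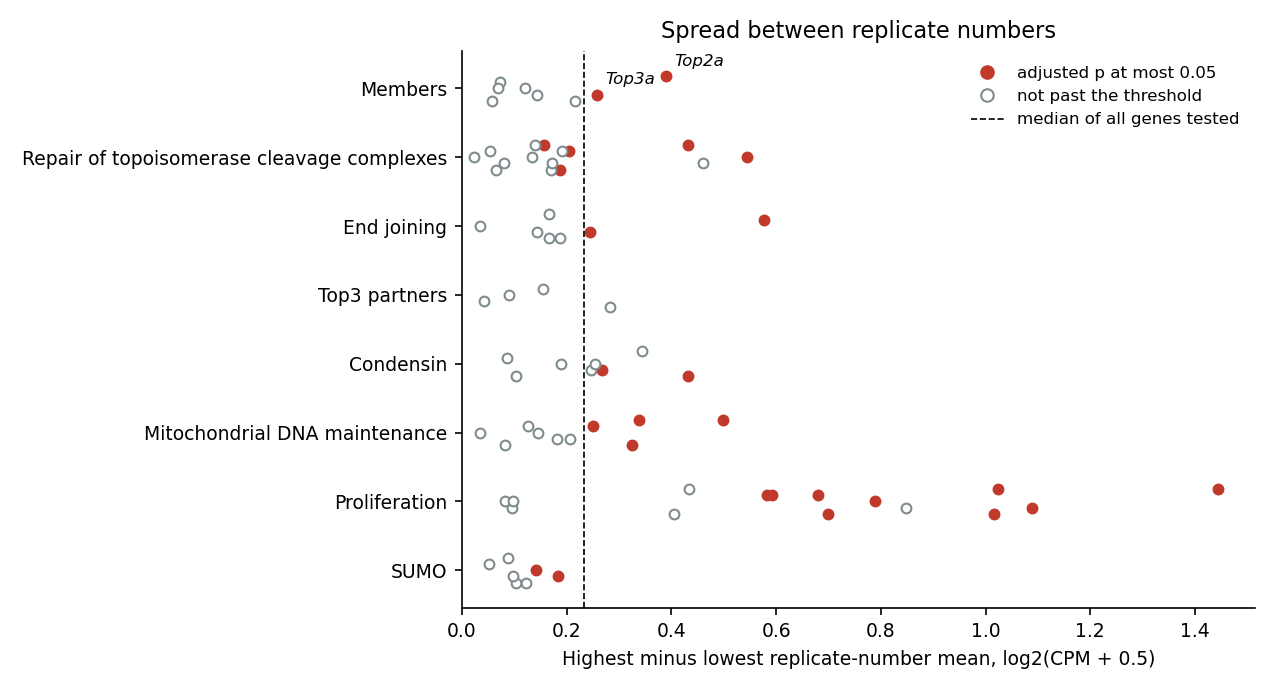
Spread between replicate numbers for each measured gene, as the highest minus the lowest number's mean of log2(CPM + 0.5), for the 8 members and each list of related genes. Filled points passed the test over replicate numbers, and the dashed line is the median of all genes tested (0.23). Top2a (0.39) and Top3a (0.26) are the filled members, and the proliferation list reaches 1.44.

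The 5 genes most like Top2a over the 6 libraries, by the root mean square difference of log2(CPM + 0.5) profiles centred on their means, were Tcf4 (0.0274), Msto1 (0.0294), Fam60a (0.0296), Pdlim7 (0.0334) and Prmt1 (0.0338), among 10392 genes with a mean of at least 5 CPM. Top2a itself, at a mean of 3.51 CPM, lay under that floor, as did Cenpf and Bub1b. Genes as low as these were not searched. The median difference was 0.212, and a profile flat over the 6 libraries would differ by 0.192. Tcf4, a transcription factor gene, stood at 162, 217 and 207 CPM in sgPVT1 MEFs, against 149, 195 and 200 CPM in sgTom MEFs. Prmt1, which encodes an arginine methyltransferase, stood at 99.6, 128 and 132 CPM in sgPVT1 MEFs, against 94.6, 122 and 120 CPM in sgTom MEFs. Both were lowest in replicate 1, as Top2a was, which follows from their choice by likeness to Top2a. The comparison covers 3 replicate numbers, which many genes follow. No member other than Top2a was searched in this way, since none spread over more than 1 log2 unit, and Top2a itself spread over 0.52.

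Genes that repair stuck topoisomerases or work beside these enzymes were described by counts alone. Of 15 genes for the repair of topoisomerase-DNA complexes, 10 lay higher and 5 lower in sgPVT1 MEFs. Among all genes tested, 7176 lay higher and 7264 lower. The median log2 fold change of the 15 was 0.020, with 0 called in either fit. Parp1, the break sensor that recruits Tdp1, stood at 27.0 ± 1.83 CPM in sgPVT1 MEFs and 25.1 ± 2.14 CPM in sgTom MEFs (SD, n = 3 each; log2 fold change 0.11). Ercc4, a nuclease that can cut away a stuck end, stood at 22.9 ± 0.731 CPM and 21.5 ± 0.297 CPM in sgPVT1 and sgTom MEFs (SD, n = 3 each; 0.091). Between replicate numbers 5 of the 15 (33.3%, background 48.6%) differed, among them the nuclease partner Ercc1 (81.7, 55.8 and 62.6 CPM in replicates 1, 2 and 3) and the ligase Lig3 (38.0, 51.5 and 42.4 CPM). Ercc1 was highest and Lig3 lowest in replicate 1.

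Of 7 end-joining genes, 3 lay higher and 4 lower in sgPVT1 MEFs (median −0.011), and 2 (28.6%, background 48.6%) differed between replicate numbers. These were Prkdc, the kinase subunit that holds broken ends (9.67, 11.8 and 14.7 CPM in replicates 1, 2 and 3), and Xrcc6, which encodes the Ku70 end-binding protein (14.3, 16.9 and 17.02 CPM). Condensin genes, whose products fold mitotic chromosomes together with Top2a, lay higher in 6 of 8 cases (median 0.052), with Smc2 at 12.5 CPM in sgPVT1 MEFs and 11.6 CPM in sgTom MEFs (0.11) and Smc4 at 16.5 CPM in sgPVT1 MEFs and 17.8 CPM in sgTom MEFs (−0.11). Smc2 and Ncapd2 (25% of the list, background 48.6%) differed between replicate numbers, and replicate 3 was the highest for both (13.6 and 13.4 CPM). Of 4 measured Top3 partners, 3 lay higher, among them Tdrd3 (11.8 CPM in sgPVT1 MEFs and 11.5 CPM in sgTom MEFs), and 0 differed between replicate numbers (background 48.6%). Mitochondrial DNA genes were split 5 to 5 (median −0.0020), with Tfam, which packs mitochondrial DNA, at 18.9 CPM in sgPVT1 MEFs and 19.5 CPM in sgTom MEFs. Of these 10 genes, 4 (40%, background 48.6%) differed between replicate numbers, and Polg, the mitochondrial DNA polymerase gene, averaged 47.8, 40.1 and 41.4 CPM in replicates 1, 2 and 3. Of 7 SUMO pathway genes, whose products tag stuck topoisomerases for repair or removal, 4 lay higher and 3 lower (median 0.021), and 2 (28.6%, background 48.6%) differed between replicate numbers, the ligase genes Pias4 (31.6, 35.9 and 32.3 CPM) and Rnf4 (168, 185 and 181 CPM). The counts of genes higher or lower stand beside 7176 higher and 7264 lower among all genes tested. No gene of these lists was called between guides in either fit, beside the background of 0% without the block and 0.0346% with it.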

How the data were processed

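The members and gene lists were chosen with earlier results of these data known. RNA was polyadenylated and libraries strand-specific, per the labels' protocols. The submitters' processing notes name edgeR 3.22.3, HTSeq 0.6.1, StringTie 1.2.4, TopHat2 2.0.14 and the build mm10. Per the file headers the authors made CPM values, the log2 fold change and the p-value with its false discovery rate, and their test is not named. The 6 pseudo-count columns were left out. Entries for reads in no gene (8.06% to 8.94% of a library) and ambiguous reads (0.543% to 1.58%) were removed.

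CPM divided by the worth of 1 read came out whole within 0.01 reads for 100% of values, which gave the reads for edgeR 4.0.16 and DESeq2 1.42.0 as alternatives. The main test was limma 3.58.1 (trend, robust) on log2(CPM + 0.5) for 14440 genes with 0.5 CPM or more in 3 or more libraries, leaving 4 residual degrees of freedom, or 2 with the replicate block. Replicate numbers were tested by limma's F test with the guide as a term. Deviations from group means correlated at 0.869, 0.739 and 0.817 for equal replicate numbers across genes, which are not independent, and at 0.203 at most otherwise, so numbers were taken to pair libraries. Named were the 8 members, Pvt1 and Myc, the 5 genes nearest to Top2a, and per list up to 2 genes by the guide p and 2 by the replicate p. Fits were tested on reads simulated without a replicate effect, so that test does not cover the differences between replicate numbers seen here. Lengths and coordinates are from GENCODE M21, promoters from RefSeq (5 of 8 members matched). Alternatives were other normalizations, filters, pseudocounts, tests, thresholds and left-out libraries.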

Additional observations from a re-analysis of the deposited data

How the results depend on the processing

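No member was called between guides in any of 167 comparisons with an alternative (lowest limma adjusted p 0.382). The sign changed in 11 of them, each time with libraries left out. Over left-out libraries the log2 fold change lay between −0.042 and 0.035 for Top1, −0.0054 and 0.037 for Top1mt, −0.021 and 0.24 for Top2a, −0.014 and 0.042 for Top2b, −0.046 and 0.16 for Top3a, and −0.0052 and 0.14 for Tdp1. With the replicate block and without 1 replicate the reversed values were 0.019 for Top1 (without replicate 3), −0.042 for Top3a (without replicate 1) and −0.014 for Top2b (without replicate 2). Top3b (0.044 to 0.12) and Tdp2 (−0.16 to −0.057) kept their sign in each alternative run. The Top2a to Top2b difference lay between −0.040 and 0.23. The number of all genes called between guides, 0 by limma (50 at an unadjusted p under 0.05), was 1 by DESeq2 and 0 by edgeR. With the replicate block it was 5, by edgeR with the block 3, by limma without trend with the block 0 (843 at an unadjusted p under 0.05; adjusted p 0.249 for Pvt1 and 0.835 for Myc), and with the block 8, 160 and 9 without replicate 1, 2 and 3. Between replicate numbers 7022 genes were called, 4328 without trend, 4662 at a threshold of 0.01, and 3068 to 7027 with a replicate left out. Of the members 2 were called there, 1 without trend, 1 at a mean of at least 5 CPM (Top2a is then not tested), 0 at the threshold of 0.01, and 1 to 3 with a replicate left out. The causes were not tested. The length of genes was varied after seeing the data. Top2a, with 152 to 291 reads per library, is the member most limited by depth.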
